A study of Mus musculus with 6 samples.

Results

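The muscle and general isoforms of cytochrome c oxidase, the enzyme that forms complex IV of the respiratory chain, were read from RNA sequencing of mouse hearts with and without the mitochondrial ribosomal protein gene Mrps5. The genes were chosen by name: Cox4i1, Cox4i2, Cox6a1, Cox6a2, Cox6b1, Cox6b2, Cox7a1, Cox7a2, Cox8a and Cox8b, which are 10 of the 54532 genes listed and form 5 pairs. Their values are given as FPKM, the number of sequenced fragments divided by the length of the gene and by a size factor of the library. The lengths are those listed for each gene, from 360 bases for Cox8b to 1550 for Cox4i1. Levels, sums, shares and ratios across genes depend on these lengths. The fold change of a gene or of a ratio between groups does not. Control hearts (Ctrl, n = 3) came from Mrps5 fl/fl mice, in which both Mrps5 alleles carry loxP sites, and knockout hearts (cKO, n = 3) from Mrps5 fl/fl;MCM mice, which carry in addition MerCreMer, a tamoxifen-inducible Cre driven by the cardiomyocyte promoter αMHC. All 6 mice received tamoxifen by intraperitoneal injection, 45 mg/kg/day for 5 days from 8 weeks of age, and hearts were taken 12 weeks after tamoxifen. The controls thus had the drug and the floxed alleles but not the Cre transgene, and cells of the heart other than cardiomyocytes were not targeted. The labels name the tissue as heart, and the study's methods describe ventricular tissue of littermates. Those methods also give the mice as 12 weeks old, which differs from the times in the labels. The labels were followed here.

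Cytochrome c oxidase passes electrons from cytochrome c to oxygen and pumps protons across the inner mitochondrial membrane. Its catalytic core is encoded by mitochondrial DNA (mt-Co1, mt-Co2 and mt-Co3) and is surrounded by smaller subunits encoded in the nucleus. Several of these nuclear subunits come from paired genes. Heart and skeletal muscle of adult mice use largely the muscle forms Cox6a2, Cox7a1 and Cox8b, whereas most other tissues, and the heart before birth, rely more on the general forms Cox6a1, Cox7a2 and Cox8a. Subunits 4 and 6b also have paired genes, but there the restricted form is not a muscle form: Cox4i2 is known from lung and from cells of the vessel wall, and Cox6b2 from testis.

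The Mrps5 message, the target of the deletion, was 5.20, 6.45 and 6.33 FPKM in Ctrl and 1.12, 1.23 and 1.31 FPKM in cKO, or 20.4% of Ctrl (log2 fold change -1.65, SE 0.09, limma adjusted p = 0.000202). Each library held between 15989322 and 24875499 reads assigned to genes, worked back from the FPKM values. The size that the FPKM values were divided by was not this total but 0.913 to 0.980 of it in the Ctrl hearts and 1.06 of it in each cKO heart, so levels had been scaled differently in the 2 groups. The ratio of 2 genes within a heart does not depend on that scaling. Atrial genes varied within both groups: the myosin light chain Myl7 ranged from 18.1 to 679 FPKM in Ctrl and from 71.8 to 495 FPKM in cKO, with Ctrl replicate 1 and cKO replicate 3 highest. Nppa, the most abundant atrial gene listed and one that ventricles also make under load, was 1062, 144 and 103 FPKM in Ctrl and 469, 1127 and 938 FPKM in cKO, and none of 6 atrial genes listed passed the test. cKO replicate 2 had 10.7 FPKM of Xist and 0 FPKM of the Y-linked Ddx3y, Kdm5d, Uty and Eif2s3y, the reverse of the other 5 hearts, although the study describes male mice. A linear model (limma) was fitted across the 12944 genes that averaged 0.5 FPKM or more over the 6 hearts, and 2205 genes were lower and 2110 higher in cKO at an adjusted p under 0.05. Rescaling each library after leaving out mtDNA-encoded genes changed this split to 1623 lower and 2647 higher. Without Ctrl replicate 2 there were 1434 genes lower, and without Ctrl replicate 3 there were 1450 lower and 1400 higher.

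All 10 isoform genes passed the filter on low values. Of these, 4 were lower in cKO (Cox7a1, Cox8b, Cox4i2 and Cox6b2), beside a background of 17.0% of all genes tested, and 2 were higher (Cox6a1 and Cox8a), beside 16.3%. Of the 4, Cox6b2 passed the filter through its Ctrl level, its cKO mean being under the minimum, so its place in the count is not independent of its direction. The other 4 (Cox6a2, Cox7a2, Cox4i1 and Cox6b1) did not pass the threshold. The groups did not overlap for 8 of the 10, beside 51.2% of all genes tested. The muscle-to-general ratio was lower in all 3 cKO hearts than in any Ctrl heart for subunits 6a, 7a and 8, but the genes behind it differed: the general form rose in subunit 6a, the muscle form fell in subunit 7a, and both happened in subunit 8. The same 4 lower and 2 higher genes were called when cKO replicate 2 was left out, when Ctrl replicate 1 and cKO replicate 3 were both left out, and in each other setting tried. In bulk tissue, fewer cells of a type and less RNA per cell cannot be told apart.

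**Figure D1:**
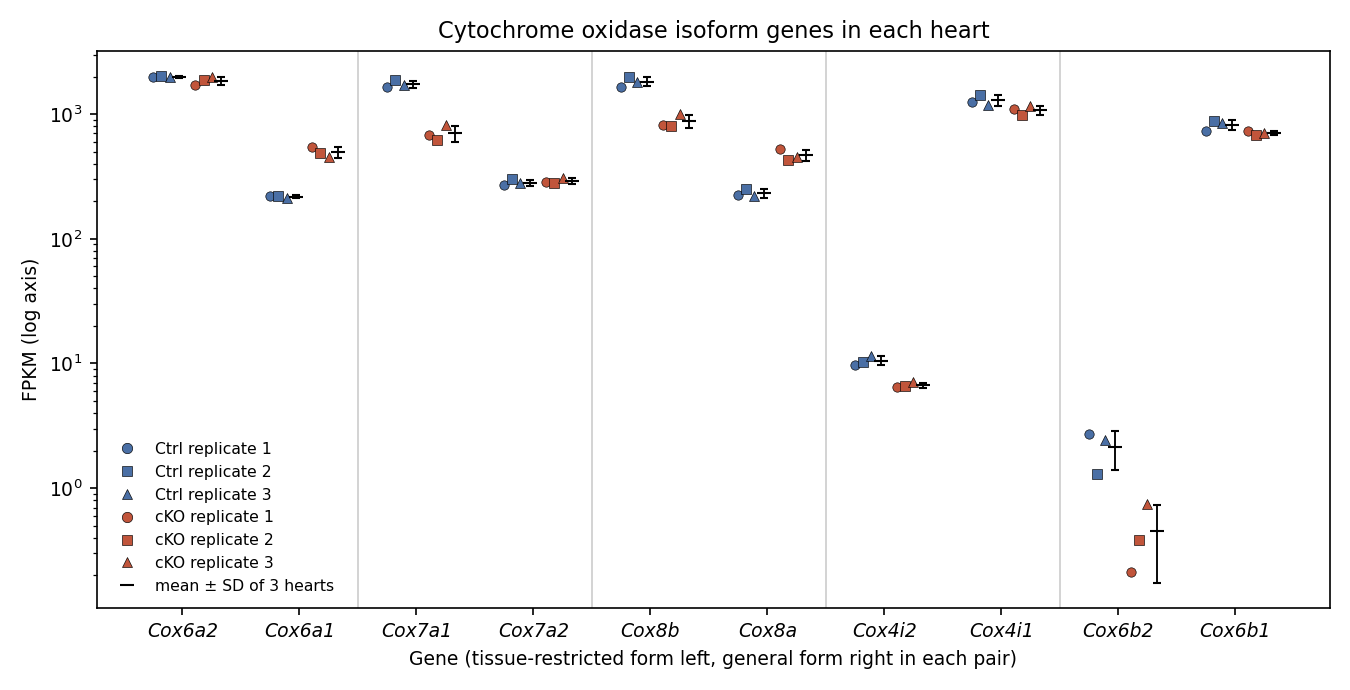
FPKM of the 10 isoform genes in each of the 3 Ctrl (blue) and 3 cKO (red) hearts on a log axis, with the tissue-restricted form on the left of each pair and the mean ± SD of 3 hearts in black. Cox7a1 and Cox8b sit lower and Cox6a1 and Cox8a higher in every cKO heart, while Cox6a2 and Cox7a2 overlap between groups.

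The 4 genes of the muscle pairs that passed the test are shown here by their promoters, so that the 2 that rose can be read beside the 2 that fell. RefSeq promoter windows (GRCm38.p6, from 250 bases before to 50 bases after the start site, 300 bases each) matched 7 of the 10 genes, with no window for Cox4i1, Cox4i2 and Cox6a2. Capitals mark matches to the consensus of NRF-1 (GCGCATGC) or of GABP, also called NRF-2 (CCGGAAGT), nuclear factors known for driving genes of the respiratory chain. Both strands were searched, also for ERR (TCAAGGTCA), the MEF2 consensus and the E-box (CANNTG), which are not in capitals. The windows lie at chr5:115348909-115349208 (Cox6a1, minus strand), chr19:7217567-7217866 (Cox8a, minus strand), chr7:30183921-30184220 (Cox7a1, plus strand) and chr7:140900397-140900696 (Cox8b, minus strand), each printed 5′ to 3′ on the gene's own strand.
Cox6a1: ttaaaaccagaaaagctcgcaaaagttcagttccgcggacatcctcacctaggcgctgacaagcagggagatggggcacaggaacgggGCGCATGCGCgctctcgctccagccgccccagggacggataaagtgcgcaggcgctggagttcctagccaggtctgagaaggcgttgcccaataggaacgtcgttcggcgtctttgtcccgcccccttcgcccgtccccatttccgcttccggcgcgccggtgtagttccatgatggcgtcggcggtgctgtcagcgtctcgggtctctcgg
Cox8a: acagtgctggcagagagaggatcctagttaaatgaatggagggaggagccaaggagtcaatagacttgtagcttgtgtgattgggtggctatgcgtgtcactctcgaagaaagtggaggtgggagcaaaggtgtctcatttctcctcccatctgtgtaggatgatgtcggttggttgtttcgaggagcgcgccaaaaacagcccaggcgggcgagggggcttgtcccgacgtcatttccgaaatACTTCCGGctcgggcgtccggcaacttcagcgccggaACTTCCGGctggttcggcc
Cox7a1: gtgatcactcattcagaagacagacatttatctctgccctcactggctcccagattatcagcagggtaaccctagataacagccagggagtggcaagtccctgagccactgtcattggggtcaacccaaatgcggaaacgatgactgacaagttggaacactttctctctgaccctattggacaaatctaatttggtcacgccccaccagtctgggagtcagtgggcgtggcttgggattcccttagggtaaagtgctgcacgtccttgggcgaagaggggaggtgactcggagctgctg
Cox8b: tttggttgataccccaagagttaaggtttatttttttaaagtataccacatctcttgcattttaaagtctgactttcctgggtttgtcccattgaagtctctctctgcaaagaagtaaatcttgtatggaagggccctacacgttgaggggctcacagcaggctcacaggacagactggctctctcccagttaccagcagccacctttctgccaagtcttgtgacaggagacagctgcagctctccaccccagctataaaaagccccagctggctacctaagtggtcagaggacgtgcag
The Cox6a1 window held the NRF-1 letters on both strands, overlapping, beginning at -162 and at -160 with the start site counted as 0. NRF-1 letters occurred in 2.71% of 32851 promoter windows. The Cox8a window held the GABP letters on the minus strand at -6 and at 31, beside 3.89% of all windows with a match. The Cox7a1 and Cox8b windows held neither. The windows of Cox7a2 and Cox6b1, which did not pass the threshold, and of Cox6b2, called lower, held neither as well. None of the 7 windows held the ERR letters (0.423% of all windows) or the MEF2 consensus (0.557%). E-box letters occurred in 5 of the 7 windows, beside 72.3% of all windows. GC content was 63.0% for Cox6a1, 56.0% for Cox8a, 53.0% for Cox7a1 and 48.3% for Cox8b. A match of letters is a description of the window and not a bound site.

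Subunit 6a lies near the site where ATP and ADP are known to tune the enzyme. Its muscle gene Cox6a2 (chr7:128205435-128206387, minus strand, 3 exons) was 1970, 2016 and 1972 FPKM in Ctrl and 1700, 1860 and 1988 FPKM in cKO. The cKO range reached into the Ctrl range, with cKO replicate 1 lowest of all 6 hearts. The change was -0.11 on the log2 scale (SE 0.09, 95% interval -0.32 to 0.11, limma adjusted p = 0.409). Its general gene Cox6a1 (chr5:115345642-115348981, minus strand, 3 exons) was 222, 219 and 211 FPKM in Ctrl and 547, 486 and 450 FPKM in cKO. Every cKO heart was above every Ctrl heart, and the cKO mean was 2.28 times the Ctrl mean (log2 fold change 1.18, SE 0.09, limma adjusted p = 0.000675). A transcript of AC148174.2 is 92.9% identical to Cox6a1 over 496 bases. AC148174.2 was not analysed here, and reads that could come from either are uncertain in origin. Cox6a2 lies within Itgad on the opposite strand, a gene with 0.0704 FPKM in Ctrl and 0.0556 FPKM in cKO.

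The Cox6a2 to Cox6a1 ratio was 8.89, 9.20 and 9.34 in Ctrl and 3.11, 3.83 and 4.42 in cKO. The 2 ranges were well apart, and the means were 9.14 ± 0.228 (SD, n = 3) and 3.78 ± 0.656 (SD, n = 3). On the log2 scale the ratio fell by 1.29, or 2.44-fold (exact two-sided permutation p = 0.1, the smallest that 3 against 3 hearts can give, and 0.1 after adjustment over 5 pairs). The summed message of both forms was 2192, 2235 and 2184 FPKM in Ctrl and 2247, 2347 and 2438 FPKM in cKO, a log2 difference of 0.09 (exact permutation p = 0.1) that was 0.18 after rescaling without mtDNA-encoded genes. The muscle share of the sum went from 90.1% ± 0.223 to 78.8% ± 2.97 (SD, n = 3 each). The sum for this position was thus slightly higher in cKO while its muscle share was lower.

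Subunit 7a crosses the membrane at the side where complex IV meets complex III in respiratory supercomplexes. Its muscle gene Cox7a1 (chr7:30184144-30186078, plus strand, 4 exons) was 1638, 1866 and 1714 FPKM in Ctrl and 675, 617 and 820 FPKM in cKO. The highest cKO heart was below the lowest Ctrl heart, and on average cKO had 40.5% of the Ctrl level (log2 fold change -1.31, SE 0.12, limma adjusted p = 0.00113). This was the largest change among the 10 genes on the log2(FPKM + 1) scale, whereas Cox6b2, a gene with few reads, changed more with a pseudocount of 0.1 (-2.08 against -1.31 for Cox7a1) and in voom on the recovered reads (-2.19 against -1.29). Its general gene Cox7a2 (chr9:79755361-79759878, minus strand, 4 exons) was 268, 299 and 277 FPKM in Ctrl and 288, 279 and 308 FPKM in cKO. The groups overlapped, and the log2 fold change was 0.05 (SE 0.08, 95% interval -0.14 to 0.24, limma adjusted p = 0.661).

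The Cox7a1 to Cox7a2 ratio was 6.12, 6.24 and 6.18 in Ctrl and 2.35, 2.21 and 2.66 in cKO. The Ctrl hearts were within a narrow band, 6.18 ± 0.0579 (SD, n = 3), and all 3 cKO hearts lay below it at 2.41 ± 0.233 (SD, n = 3). The log2 ratio fell by 1.36, or 2.57-fold (exact permutation p = 0.1). Here the summed message was also below the Ctrl range in every cKO heart, going from 1906, 2165 and 1991 FPKM to 963, 896 and 1128 FPKM, 49.3% of the Ctrl mean (log2 difference -1.03, exact permutation p = 0.1). The muscle share went from 86.1% ± 0.112 to 70.6% ± 1.97 (SD, n = 3 each).

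Subunit 8 is a short membrane-spanning subunit. Its muscle gene Cox8b (chr7:140898945-140900446, minus strand, 2 exons) was 1662, 1970 and 1822 FPKM in Ctrl and 816, 809 and 994 FPKM in cKO. All 3 cKO hearts were below all 3 Ctrl hearts, with 48.0% of the Ctrl level on average (log2 fold change -1.06, SE 0.12, limma adjusted p = 0.00166). Its general gene Cox8a (chr19:7215158-7217616, minus strand, 2 exons) was 223, 253 and 220 FPKM in Ctrl and 522, 427 and 456 FPKM in cKO. The cKO hearts were all above the Ctrl hearts, 2.02 times as high on average (log2 fold change 1.01, SE 0.10, limma adjusted p = 0.00147).

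The Cox8b to Cox8a ratio was 7.45, 7.80 and 8.28 in Ctrl and 1.56, 1.89 and 2.18 in cKO. In FPKM the muscle form was thus still the more abundant in every cKO heart, but by a smaller margin than for 6a or 7a. The log2 ratio fell by 2.07, or 4.21-fold (exact permutation p = 0.1). The summed message was 1885, 2223 and 2042 FPKM in Ctrl and 1338, 1236 and 1449 FPKM in cKO, 65.4% of the Ctrl mean (log2 difference -0.61, exact permutation p = 0.1). The muscle share went from 88.7% ± 0.528 to 65.0% ± 3.80 (SD, n = 3 each).

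**Figure D2:**
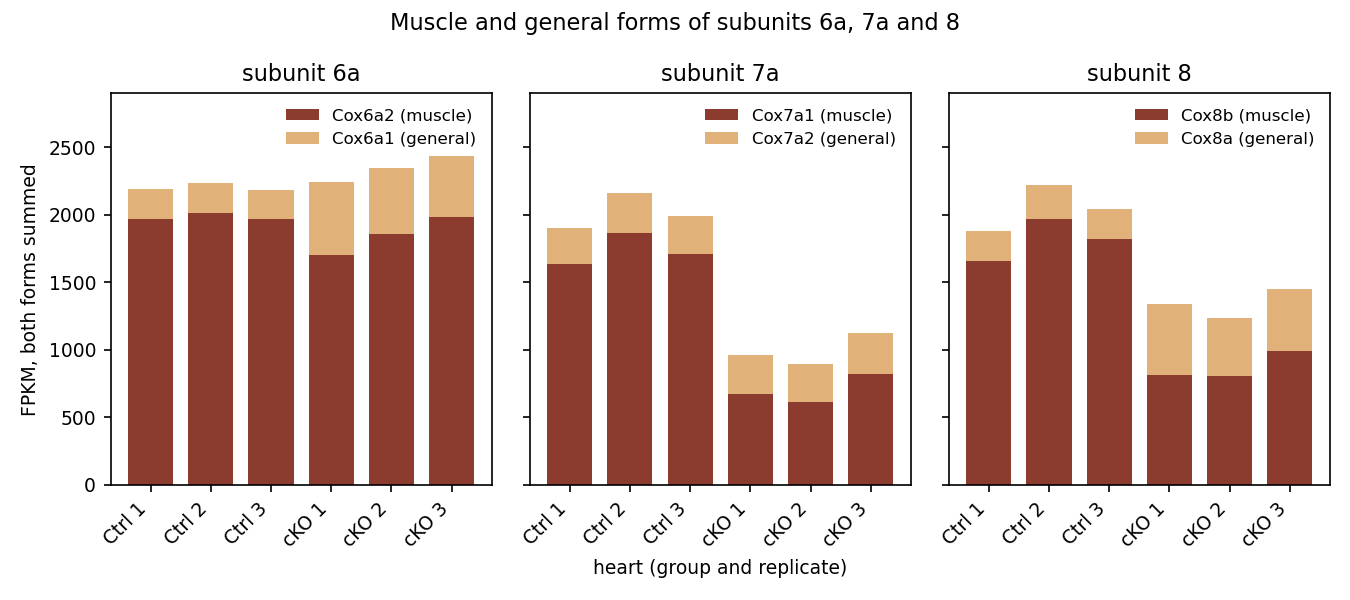
Stacked FPKM of the muscle form (dark) and the general form (light) of subunits 6a, 7a and 8, 1 bar per heart, with the axis starting at 0. For 6a the bars stay between 2184 and 2438 FPKM in all 6 hearts while the light part grows in cKO, for 7a the dark part shrinks, and for 8 the dark part shrinks while the light part grows.

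The 3 muscle ratios were compared with each other within hearts. The log2 ratio of subunit 8 fell further than that of subunit 7a by 0.71, and further than that of subunit 6a by 0.79, with no overlap between the groups in either comparison (exact permutation p = 0.1 for each and 0.15 after adjustment over 3 comparisons). The shifts of 7a and 6a differed by -0.08 with overlapping groups (exact permutation p = 0.6). Within cKO, replicate 3 had the highest ratio for all 3 muscle pairs. The partners of a pair share little transcript sequence, with 71.1% identity over 142 bases for 7a, an alignment of only 95 bases for 6a and none found for 8, so reads of the partners could be told apart.

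**Figure D3:**
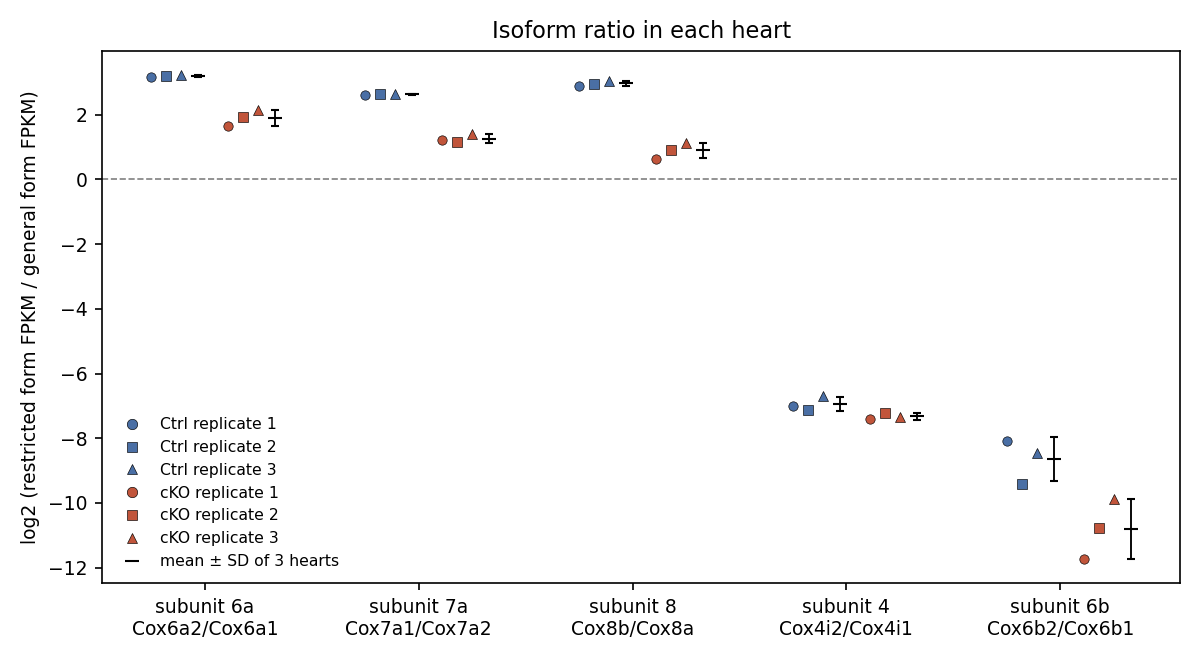
log2 ratio of restricted to general form FPKM in each Ctrl (blue) and cKO (red) heart for the 5 pairs, with the mean ± SD of 3 hearts in black and a dashed line at equal levels. The muscle pairs 6a, 7a and 8 stay above the line and are lower in every cKO heart, and the pairs 4 and 6b lie far below it in both groups.

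Subunit 4 is a large nuclear subunit that is known to bind ATP. Its general gene Cox4i1 (chr8:120668222-120674207, plus strand, 5 exons) was 1242, 1433 and 1191 FPKM in Ctrl and 1088, 982 and 1158 FPKM in cKO. The ranges were adjacent without overlap, and the log2 fold change of -0.26 (SE 0.11, 95% interval -0.52 to -0.0014) did not pass after adjustment (limma adjusted p = 0.110). Cox4i1 shares 352 bases of its locus with Emc8 on the opposite strand, which was at 3.28 FPKM in Ctrl and 3.78 FPKM in cKO. Cox4i1 also shares 5986 bases with Gm20388 on the same strand, which was at 0 FPKM in both groups. Whether counting used the strand is not given in the sources used here. The restricted gene Cox4i2 (chr2:152754173-152765037, plus strand, 4 exons) was 9.78, 10.3 and 11.5 FPKM in Ctrl and 6.45, 6.63 and 7.06 FPKM in cKO. All cKO hearts were lower, with 63.8% of the Ctrl level on average (log2 fold change -0.58, SE 0.08, limma adjusted p = 0.00325).

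Cox4i2 made up 0.817% ± 0.124 of the subunit 4 message in Ctrl and 0.622% ± 0.0429 in cKO (SD, n = 3 each). The log2 ratio fell by 0.39 (exact permutation p = 0.1), and the summed message was 83.3% of the Ctrl mean. The log2 difference of the sum was -0.26 (exact permutation p = 0.1) and went to -0.17 after rescaling without mtDNA-encoded genes (exact permutation p = 0.2). Genes listed for pericytes, the mural cells of small vessels, were mostly lower alongside. Of 8 listed, 6 were called lower and 1 higher, beside 17.0% and 16.3% of all genes tested. Their summed level was 210 to 236 FPKM in Ctrl and 105 to 124 FPKM in cKO. Rgs5, the most abundant of them, was 123 ± 8.53 FPKM in Ctrl and 58.3 ± 6.55 FPKM in cKO (SD, n = 3 each), and Cspg4 was the gene that was higher. Abcc9, the next most abundant, was 41.4 ± 5.59 FPKM in Ctrl and 19.0 ± 1.68 FPKM in cKO. Notch3 was called lower though its groups overlapped, and Pdgfrb overlapped and did not pass (limma adjusted p = 0.190). Of 6 endothelial genes 3 were called lower, beside the same 17.0% of all genes tested. Among them was the most abundant, Cdh5 (42.7 ± 2.71 FPKM in Ctrl and 28.2 ± 1.52 FPKM in cKO). The summed level of the 6 was 125 to 143 FPKM in Ctrl and 82.8 to 101 FPKM in cKO. The part of these cells in the Cox4i2 difference was not tested.

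Subunit 6b lies on the intermembrane side, near the place where cytochrome c docks. Its general gene Cox6b1 (chr7:30616861-30626151, minus strand, 4 exons) was 734, 883 and 845 FPKM in Ctrl and 725, 679 and 711 FPKM in cKO. The cKO hearts were all lower, by a small margin, and the log2 fold change of -0.22 (SE 0.10, 95% interval -0.44 to 0.011) did not pass the threshold (limma adjusted p = 0.126). The restricted gene Cox6b2 (chr7:4751792-4753094, minus strand, 3 exons) was 2.70, 1.30 and 2.43 FPKM in Ctrl and 0.213, 0.387 and 0.753 FPKM in cKO. It rests on few reads, 57, 30 and 65 in Ctrl against 4, 10 and 21 in cKO, and its cKO mean of 0.451 FPKM alone would be under the minimum of 0.5. The fitted change was -1.10 on the log2 scale (SE 0.21, limma adjusted p = 0.00904). This value is on the log2(FPKM + 1) scale, which understates the change of a gene at this level (-2.08 with a pseudocount of 0.1). The untransformed cKO mean was 21.1% of the Ctrl mean.

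The Cox6b2 to Cox6b1 log2 ratio was -8.09, -9.41 and -8.44 in Ctrl and -11.73, -10.78 and -9.88 in cKO. Cox6b2 was thus a trace form in all 6 hearts, with 0.267% ± 0.111 of the subunit 6b message in Ctrl and 0.0641% ± 0.0388 in cKO (SD, n = 3 each). The ratio fell by 2.15 on the log2 scale (exact permutation p = 0.1), and the summed message was 85.7% of the Ctrl mean. The log2 difference of that sum was -0.22 (exact permutation p = 0.1) and went to -0.13 with the same rescaling (exact permutation p = 0.3). Of 6 male germ cell genes, 5 were at 0 in every heart and the sum, from Odf1 alone, did not exceed 0.0475 FPKM.

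Ordered by FPKM, the Ctrl hearts began with Cox6a2 at a mean of 1986 FPKM, the gene ranked 27 of all. It was followed by Cox8b, Cox7a1, Cox4i1, Cox6b1, Cox7a2, Cox8a, Cox6a1, Cox4i2 and Cox6b2. Only Cox8b with Cox7a1 and Cox8a with Cox6a1 overlapped as neighbours in that order. In cKO, Cox6a2 remained first at 1850 FPKM, ranked 21 of all, and was followed by Cox4i1, Cox8b, Cox6b1, Cox7a1, Cox6a1, Cox8a, Cox7a2, Cox4i2 and Cox6b2. There the overlapping neighbours were Cox4i1 with Cox8b, Cox6b1 with Cox7a1, and Cox6a1 with Cox8a. Among the 3 general forms of the muscle pairs, Cox7a2 was thus the highest in Ctrl and the lowest in cKO by FPKM. These orders depend on the gene lengths used. Cox4i1 was divided by 1550 bases, against 765 in its longest coding transcript, and had more reads than Cox6a2 in all 6 hearts. Of the 10 genes, 5 lie on chromosome 7, where Cox7a1 and Cox6b1 are 430782 bases apart, with Cox7a1 lower in cKO and Cox6b1 not past the threshold.

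The rest of the complex gave the background for these shifts. Of the 6 other nuclear genes listed, 5 were lower in cKO and none higher, beside 17.0% and 16.3% of all genes tested. Their median log2 fold change was -0.46, beside -0.24 for the 10 isoform genes and -0.02 for all genes tested. Cox6c, a small membrane subunit, fell from 240 ± 22.1 to 156 ± 15.2 FPKM (SD, n = 3 each, log2 fold change -0.62, limma adjusted p = 0.00586). Cox7c fell by 0.47, Cox7b and Ndufa4 by 0.46 each and Cox5b by 0.27 on the log2 scale, and Cox5a, with a log2 fold change of -0.25, did not pass (limma adjusted p = 0.0767). Of the 3 mtDNA-encoded core subunits, mt-Co3 was lower (log2 fold change -0.76, SE 0.18, limma adjusted p = 0.0196), whereas mt-Co1 (-0.34) and mt-Co2 (-0.17) did not pass. The number of these 9 genes called lower went from 6 to 3 when Ctrl replicate 2 or Ctrl replicate 3 was left out, and to 3 without the filter on low values. None of the 9 passed in the higher direction in any setting, so Cox6a1 and Cox8a were the only complex IV genes listed here that were called higher.

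**Figure D4:**
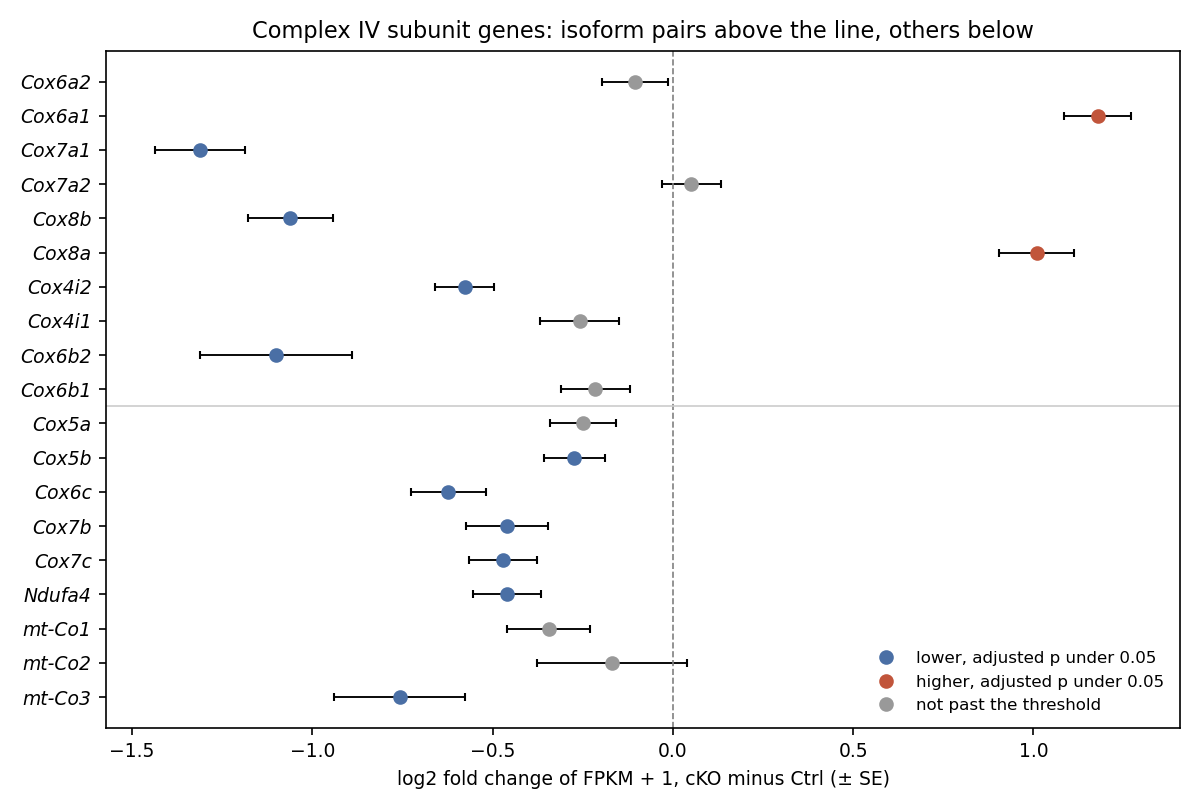
log2 fold change of FPKM + 1, cKO minus Ctrl, with its SE, for the 10 isoform genes (above the grey line) and 9 other genes of complex IV (below it), coloured by whether the adjusted p was under 0.05. Cox6a1 and Cox8a are to the right at 1.18 and 1.01, Cox7a1 is farthest left at -1.31, and the other subunits lie between -0.76 and -0.17.

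Read by position in the complex, with both forms of a pair summed, subunit 6a had the highest FPKM of the 10 nuclear positions in both groups. The places of positions depend on the gene lengths used, as they do for single genes. Subunit 6a was at 106% of the Ctrl mean in cKO. Subunit 7a showed the smallest value, 49.3%, and went from the third to the fourth place. Next came 6c at 64.8% and 8 at 65.4%, then 7c at 71.9% and 7b at 72.6%. Positions 5b, 4, 5a and 6b were between 82.6% and 85.7%. Subunit 6a was the only one of the 10 whose summed level was above that of Ctrl.

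Relatives outside the pairs were read as well. Cox7a2l, which is known to link complex IV to complex III in supercomplexes, was 167 ± 7.53 FPKM in Ctrl and 144 ± 4.89 FPKM in cKO (SD, n = 3 each) and did not pass (log2 fold change -0.21, limma adjusted p = 0.0664). Cox7b2, a testis form, was under the filter with 0.0763 to 0.677 FPKM in Ctrl and up to 0.158 FPKM in cKO. Cox8c, another testis form, was listed at 0 in all 6 hearts.

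Genes that mark cardiomyocytes, the cells in which the muscle forms are made, moved in part with them. Of 10 listed, 6 were lower (Tnnt2, Tnni3, Ryr2, Pln, Myl2 and Mb) and none was higher, beside 17.0% and 16.3% of all genes tested. Their median log2 fold change was -0.60. The summed level was 22609 to 27729 FPKM in Ctrl and 13622 to 21121 FPKM in cKO. The thin-filament and Z-disc genes Actc1, Tnnc1 and Actn2 overlapped between the groups, with log2 fold changes of -0.20, -0.12 and -0.11, and Myh6 was -0.60 without passing (limma adjusted p = 0.0907). Cox7a1 and Cox8b lay below the list's median, and Cox6a2, at -0.11, above it. Of 6 fibroblast genes, Col1a1 and Postn were higher and Dcn lower, beside the same shares of all genes tested. The summed level of the 6 was 145 to 168 FPKM in Ctrl and 132 to 143 FPKM in cKO. The part of a changed make-up of cells in the ratios was not tested. Skeletal muscle genes, which would mark other muscle in the sample, summed to at most 1.72 FPKM, with Mylpf the most abundant. None of 4 adipocyte genes tested passed, including the most abundant, Cidea (24.5 ± 2.58 FPKM in Ctrl and 29.9 ± 3.99 FPKM in cKO, SD, n = 3 each). The summed level of the 7 listed, mostly from Cidea, was 23.0 to 37.1 FPKM in Ctrl and 27.1 to 38.9 FPKM in cKO. Ucp1 was 3.49, 0.0294 and 0 FPKM in Ctrl and 0.144, 0 and 5.25 FPKM in cKO. Adipoq was 3.49, 0.557 and 0.569 FPKM in Ctrl and 0.342, 0.465 and 1.70 FPKM in cKO. Both were thus highest in Ctrl replicate 1 and cKO replicate 3, the hearts with the most atrial marker signal.

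Cox7a1, with the largest change on the log2(FPKM + 1) scale, was used to find the genes most like it over the 6 hearts. The search covered all protein-coding genes tested other than the isoform genes. The 5 with the highest Pearson correlation of log2(FPKM + 1) were Acadsb (0.999), D10Jhu81e (0.999), Decr1 (0.999), Dhrs3 (0.999) and Gcdh (0.999). The points are 2 clusters of 3 libraries, so a gene that differs between groups with little spread comes out high. Acadsb and Gcdh are mitochondrial dehydrogenases of amino acid breakdown, and Decr1 works in the oxidation of unsaturated fatty acids. Gcdh was 27.4, 30.0 and 28.5 FPKM in Ctrl and 11.2, 10.8 and 13.3 FPKM in cKO, 41.1% of the Ctrl mean. Among the isoform genes, Cox8b was the closest to Cox7a1 (0.997) and Cox6a1 the most opposite (-0.985), as values over the same 6 hearts.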

How the data were processed

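Poly-A selected RNA of 3 Ctrl and 3 cKO hearts was sequenced as paired ends. The authors aligned reads with HISAT2 2.0.5, counted them with featureCounts 1.5.0-p3 and deposited FPKM values of 54532 genes with an other, gene-level column, the gene length. The submitters' notes name DESeq2 1.16.1 for the study's own test. They also name mm9, but 53499 of 54409 gene identifiers shared with GENCODE M21 had its start and end, so coordinates correspond to GRCm38. Columns were assigned to samples by name, and groups and replicate numbers were taken from the titles. FPKM times gene length, divided by the value that a single read takes in each heart, gave whole reads for 100% of values within 0.01 of a read.

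Values were taken as log2(FPKM + 1), with a pseudocount of 1, for genes averaging 0.5 FPKM or more over the 6 hearts, and compared in R 4.3.3 by limma 3.58.1 (lmFit, then eBayes with trend, no covariates, two-sided, Benjamini-Hochberg over all genes tested, threshold 0.05). Since FPKM values are not counts, log2 values entered the main test, and the recovered reads were tested with voom as an alternative. Ratios and sums, 1 value per heart, were compared by exact two-sided permutation, with 0.1 the smallest p possible. Replicates were labelled as separate samples and taken as separate animals, and where they were not, p-values measure technical spread only. Errors given as ± are SD. Transcripts were compared with blastn 2.17.0 against GENCODE M21. The fit was tested on simulated data.

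The genes named are the 10 isoform genes, the other listed complex IV genes, Mrps5, the 5 protein-coding genes most correlated with the called isoform gene of the largest change, 10 genes of other muscle and general pairs, and of each cell type list its most abundant gene and those that bear on an isoform gene. These genes, lists and tests were chosen with earlier results of these data known. The Y-linked genes, Xist, Col1a1, Postn, Dcn, Cspg4, Notch3, Pdgfrb, Abcc9, Ucp1, Adipoq, Pln and the other cardiomyocyte genes were named after their values were seen. The settings changed were the pseudocount (0.1), the filter (none, or 1 FPKM), median-of-ratios scaling, rescaling without mtDNA-encoded genes, eBayes without trend, voom, a replicate block, and each heart left out in turn. Leaving out the 2 hearts with the most atrial marker signal was chosen after seeing the data.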

Additional observations from a re-analysis of the deposited data

How the results depend on the processing

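The 4 isoform genes called lower and the 2 called higher were the same genes under all 15 alternatives. None of the 15 scaled libraries to their total of assigned reads. Changes of single genes and of sums were thus not tested against that scaling, on which ratios within a heart do not depend. Of the 150 refitted log2 fold changes of the 10 genes, 149 kept direction and side of the threshold. The exception was Cox7a2, not past the threshold in any setting, which went from 0.05 to -0.024 without the 2 hearts with the most atrial marker signal, a setting chosen after seeing the data. The change of Cox6b2 kept its call but went from -1.10 to -2.08 with a pseudocount of 0.1 and to -2.19 in voom. Leaving out the 2 hearts with the most atrial marker signal gave 1024 genes lower and 994 higher among all genes, with 2 hearts a group. With each heart left out in turn, all genes called lower numbered 1434 to 2006 and all genes called higher 1400 to 1993, and the other complex IV genes called lower 3 to 6. Without the filter the last count was 3. The cause was not tested. The isoform log2 ratios kept their direction in all 9 alternatives, between -1.43 and -1.15 for 6a, -1.45 and -1.30 for 7a, -2.22 and -1.95 for 8, -0.48 and -0.27 for 4, and -2.61 and -0.89 for 6b, where the last value comes from adding a pseudocount of 1 FPKM to a gene near that level. The summed message of 6a stayed above Ctrl by 0.06 to 0.18 on the log2 scale, and that of 7a had differences of -1.16 to -0.94, in all 11 alternatives. The sums of 8, 4 and 6b had differences of -0.73 to -0.52, -0.34 to -0.17 and -0.30 to -0.13. Over all genes tested the median change was -0.02 on the log2 scale as deposited and at most 0.05 under another scaling. Same-numbered hearts deviated from their group means with correlations of -0.06, 0.17 and -0.01, so the numbers were not taken to pair the hearts. With the replicate number as a replicate block, 1982 genes were lower and 1874 higher, 4 isoform genes were lower and 2 higher, 5 other complex IV genes were lower, and no call of an isoform gene was changed. The depth limits Cox6b2, which rests on 4 to 65 reads per heart, whereas the 8 genes other than Cox6b2 and Cox4i2 had at least 2317 reads in each heart. The 3 hearts a group set the precision of the ratios.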

Other observations

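Other muscle and general pairs of genes were read in the same way, as values with no test of the ratio. These pairs were chosen with earlier results of these data known, and their transcripts were not checked for near-identical copies. The adenine nucleotide carrier of heart and muscle, Slc25a4, was 12.2, 12.8 and 12.0 times the general Slc25a5 in Ctrl and 3.78, 3.97 and 4.24 times in cKO. In that pair both changed, Slc25a4 by -0.63 (limma adjusted p = 0.00493) and Slc25a5 by 0.99 (limma adjusted p = 0.00101) on the log2 scale, which is the pattern of subunit 8. The glycolytic pair Pgam2 and Pgam1 went from a ratio of 20.3 ± 1.85 to 5.17 ± 1.57 (SD, n = 3 each) with the general form higher (log2 fold change 1.68) and the muscle form at -0.31 without passing, which is the pattern of subunit 6a. The enolase ratio Eno3 to Eno1 was 24.7 ± 1.43 in Ctrl and 6.28 ± 0.999 in cKO. Both enolase genes changed, Eno3 by -1.27 (limma adjusted p = 0.00167) and Eno1 by 0.70 (limma adjusted p = 0.00120), again the pattern of subunit 8. The ribosomal pair Rpl3l, the muscle form, and Rpl3 went from 3.92 ± 0.617 to 0.303 ± 0.117, so that the general form was the more abundant in every cKO heart. It had that pattern as well, Rpl3l at -2.11 (limma adjusted p = 0.00111) and Rpl3 at 1.60 (limma adjusted p = 0.000385). The creatine kinase ratio Ckm to Ckb showed the smallest shift, 35.2 ± 1.39 in Ctrl and 30.0 ± 4.18 in cKO, with cKO ratios of 32.7, 25.2 and 32.1 against a lowest Ctrl ratio of 33.8. Ckm was lower (log2 fold change -0.42, limma adjusted p = 0.0168), and Ckb, at -0.16, did not pass (limma adjusted p = 0.324).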
